A study of Mus musculus with 16 samples.

Results

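Expression was compared over 3 ordered groups of epithelial cells from the mouse small intestine: adenoma cells, organoids co-cultured with myofibroblasts, and organoids cultured alone. The groups were chosen by their labels and made up 8 of the 14 biological samples and 10 of the 16 arrays of the series. Adenoma cells came from 4 Apc+/1638N mice (P21, P23, P34 and P36), which carry a mutant copy of Apc in their whole germline. P21 and P34 were each measured on 2 arrays, which were averaged. The P34 arrays share an animal number and are called technical replicates, but of array codes (d1a and d1b) that no other label uses, and the adenoma labels give n=3, which fits neither the 4 animals nor their 6 arrays. Co-cultured and monocultured organoids were grown from crypts of the same 2 wildtype mice (P28 and P30), so the co-culture step was measured within animals and the adenoma step between animals. All mice were C57Bl/6, labelled male and 8 to 10 weeks old. In co-culture the myofibroblasts sat on an insert with 0.4 µm pores above the Matrigel, and organoids shared their basal medium for 24 h. The labels do not tell how the adenoma cells were grown before lysis, so genotype, tumour origin and culture cannot be told apart in the adenoma step. RNA (150 ng) was amplified and hybridised to 1-colour whole-transcript GeneChips, and values are log2 levels normalised by the authors. The replicates are animals, and precision is limited by how few arrays there were.

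Crypt epithelium is renewed by Wnt-dependent stem cells at the crypt base, whose daughters divide, stop and mature into absorptive enterocytes or into goblet, Paneth, tuft and enteroendocrine cells. Myofibroblasts lie under the crypts and secrete growth factors, Wnt ligands and matrix that act on these cells. Apc belongs to the complex that destroys β-catenin. Without it Wnt target genes stay active and adenomas form, while injured epithelium can return to a fetal-like, growth-prone state in which YAP, a coactivator of TEAD transcription factors, is active.

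The labels were first set against marker genes. Epcam, an epithelial adhesion molecule, lay at 10.80, 10.85, 9.98 and 9.78 in the 4 adenoma samples, 11.19 and 11.01 in co-culture and 10.99 and 11.09 in monoculture, so all 8 samples were epithelial. The 17 fibroblast identity genes tested averaged 3.55 in adenoma, 3.57 in co-culture and 3.65 in monoculture. Collagen Col1a1, a member of that list, lay between 3.80 and 4.35 in all 8 samples. In fibroblasts of the series it lay at 12.34 in co-culture and 12.48 in monoculture. The 10 immune genes averaged 4.06, 3.99 and 4.02 and the 7 endothelial genes 3.06, 3.03 and 3.23 in adenoma, co-culture and monoculture. Single members moved under these means in the step classes and limma tests given below. The fibroblast member Acta2, an actin, took the adenoma step upward only. The immune member Cd68, a macrophage marker, was graded up. In adenoma 1 fibroblast gene was called higher and 1 lower, 2 immune genes higher and 1 lower, and 1 endothelial gene lower. The shares over all genes tested were 19.0% higher and 14.3% lower. In co-culture 0 genes of these lists were called, beside 2.71% higher and 1.32% lower over all genes tested. With the animal as a random replicate block, 1 immune gene was higher there (Cd68, adjusted p = 0.00798) and 1 lower, and 1 endothelial gene lower. Apc itself lay at 8.13, 8.29, 8.82 and 9.25 in adenoma, 8.39 and 8.51 in co-culture and 8.41 and 8.29 in monoculture, with an adenoma step of 0.17 ± 0.27 (adjusted p = 0.702). These probes do not tell mutant from intact transcripts. Animal P28 is labelled male, yet the X-inactivation transcript Xist lay at 7.57 in its co-culture and 8.04 in its monoculture, and the Y-linked Eif2s3y at 2.89 and 3.05. The adenoma animals fell into 2 close pairs: over tested genes P21 and P23 differed with an SD of 0.29 and P34 and P36 with an SD of 0.31, near the 0.28 of repeat arrays of 1 animal, against 0.65 to 0.70 between the pairs. The titles of P21 and P23 carry the tag T2, which the labels do not explain, and those of P34 and P36 do not, so the tag and the pairs cannot be told apart.

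Each of 22180 genes was classed by its 3 group means, with a step of at least 1 on the log2 scale (a 2-fold difference) counted between monoculture and co-culture (the co-culture step, co-culture minus monoculture) and between co-culture and adenoma (the adenoma step, adenoma minus co-culture). Graded genes took both steps in 1 direction: 280 upward and 135 downward. A co-culture step only was taken upward by 234 genes and downward by 101. An adenoma step only was taken upward by 1522 genes and downward by 1241, with 1247 and 1454 under cyclic loess scaling, which turned that split round. The steps were opposite in 88 genes, of which 78 were higher in co-culture than in both other groups and 10 were lower. All but 1 of the classed genes passed the filter on dim genes (highest of the series' 5 group means above 2.67). No step was taken by 18579 genes.

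**Figure D1:**
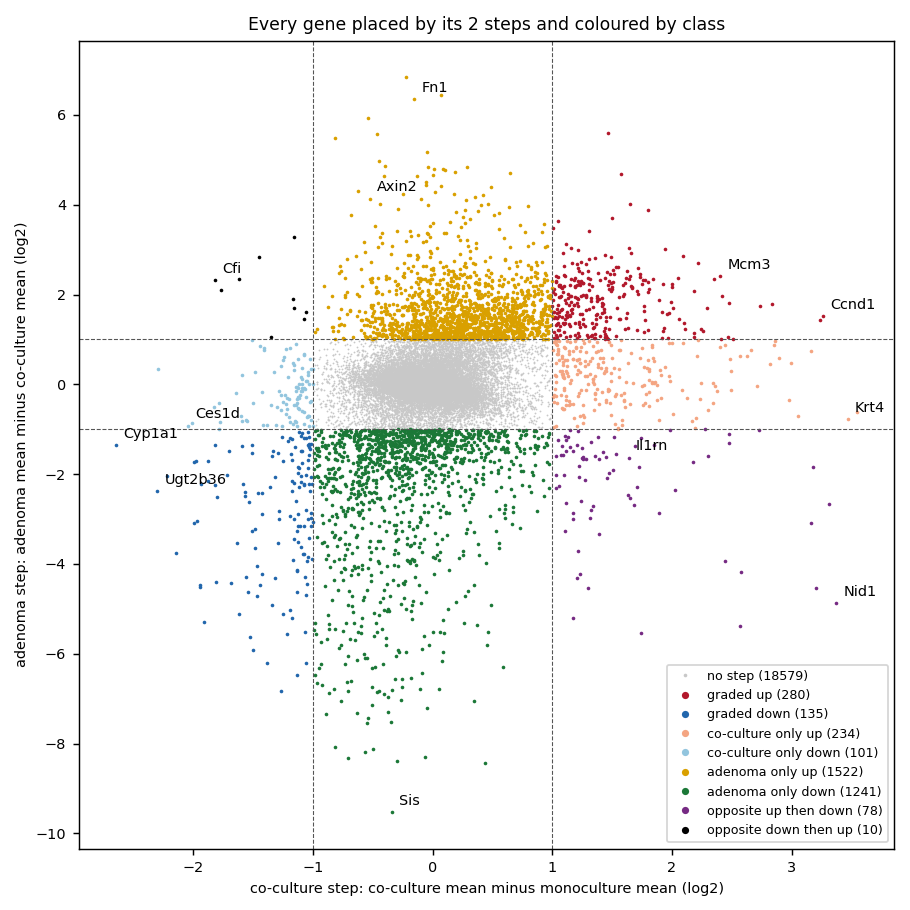
Co-culture step (horizontal axis, log2) against adenoma step (vertical axis, log2) for all 22180 genes, 1 point a gene, coloured by class. The 280 graded up genes lie at the upper right and the 135 graded down genes at the lower left, and the co-culture samples enter both axes with opposite sign.

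Steps were tested with limma over 18095 genes, with means ± SE on 11.7 degrees of freedom and Benjamini-Hochberg adjustment. Against monoculture, co-culture was higher in 2.71% of the genes tested and lower in 1.32% (4.03% in all, 729 genes). Against co-culture, adenoma was higher in 19.0% and lower in 14.3% (3439 and 2583 genes, or 2766 and 3046 under cyclic loess). Both steps were called upward in 1.54% and downward in 0.768%, and the steps differed from each other in 6.05%. Sample values ran from monoculture over co-culture to adenoma without overlap in ascending order in 11.7% and in descending order in 9.25%. The 2 steps share the co-culture samples. With the animal as a replicate block the co-culture step was called in 2460 genes (random block) or 1370 (fixed block).

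Both steps were called in 125 of the 280 graded up genes and in 63 of the 135 graded down genes, and the samples of the 3 groups did not overlap in 270 and 120. These counts are set by the same means that chose the genes and are given as a description. The same holds for gaps between groups and p-values of genes named below for the size of their steps. With the animal as a replicate block, the co-culture step was called in 243 (random) or 245 (fixed) graded up genes in place of 126, and in 106 or 90 graded down genes in place of 63. The median level over the graded up genes was 8.52 in adenoma, 6.60 in co-culture and 5.21 in monoculture, and over the graded down genes 3.57, 6.79 and 8.24. Their median steps were unequal: 1.83 for adenoma and 1.33 for co-culture upward, and -2.51 and -1.18 downward. The median co-culture step of the graded up genes was 1.39 in animal P28 and 1.25 in P30, and 192 of 280 passed the threshold in both. At the threshold Igf1r, a growth factor receptor, stood just inside the graded up class with a co-culture step of 1.0005, and Bub1b, a spindle checkpoint kinase, just outside it with 0.9984. Among genes with both steps in 1 direction, the smaller step lay within 0.1 of the threshold in 164 upward and 99 downward.

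Of the 280 graded up genes, 12 belonged to the list of DNA replication. The helicase subunit Mcm3 lay at 10.28, 10.49, 9.84 and 10.31 in adenoma, 7.53 and 8.11 in co-culture and 5.04 and 5.79 in monoculture. Mcm2 of the same helicase lay at 9.66, 9.71, 9.22 and 9.26 in adenoma, 7.04 and 7.54 in co-culture and 4.96 and 5.62 in monoculture. Rrm2, a subunit of the reductase that makes deoxynucleotides, lay at 9.58, 9.72, 9.56 and 9.58 in adenoma, 7.19 and 7.85 in co-culture and 5.30 and 5.37 in monoculture. All were named among graded genes whose groups did not overlap, so the 3 groups were apart in each by choice. Co-culture lay near the middle. Mcm3 rose by 2.40 ± 0.53 in co-culture (adjusted p = 0.0275) and by 2.41 ± 0.46 in adenoma (adjusted p = 0.00153). The difference between the 2 steps of Mcm3 was 0.00 ± 0.87. Rrm1, the partner of Rrm2, had 10.62 in adenoma, 8.39 in co-culture and 6.64 in monoculture on average, with both steps called (adjusted p = 1.07e-06 and 6.06e-04). A second probe set of Rrm2 gave smaller steps in the same direction (0.50 in co-culture, 1.10 in adenoma).

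Of the 23 replication genes tested, 12 were graded up, 10 took the adenoma step only and 1 took no step: Pcna, the polymerase clamp, averaged 10.70, 10.41 and 10.30 in adenoma, co-culture and monoculture. Over all genes tested, 19.0% rose in adenoma and 2.71% in co-culture. In adenoma 22 of the 23 replication genes rose. In co-culture 4 rose (Mcm2, Mcm3, Rrm1 and Rrm2) and none fell, against 14 with either form of the replicate block. Without P28, without P30 or with the close adenoma pairs averaged, 1 was called in co-culture. The helicase subunit Mcm5 shows this dependence: it lay at 10.43, 10.41, 10.07 and 10.17 in adenoma, 7.73 and 8.05 in co-culture and 5.45 and 6.24 in monoculture. Its groups did not overlap, but its co-culture step of 2.05 ± 0.57 had an adjusted p of 0.0723, which ran from 0.0011 (fixed replicate block) to 0.526 (without P28) over its alternatives. The primase subunit Prim1 had co-culture and adenoma steps of 1.16 ± 0.51 and 2.70 ± 0.44, and the origin licensing factor Cdc6 of 1.51 ± 0.58 and 2.55 ± 0.50, with the adenoma step called in both. The co-culture step of Prim1 had an adjusted p of 0.263 (0.0325 with a random and 0.00401 with a fixed replicate block, up to 0.837 over its alternatives), and that of Cdc6 of 0.199 (0.0186 and 0.0165, up to 0.726). The list mean ran in the same order: 8.91 ± 0.13 in adenoma (SD, n = 4), 6.88 in co-culture and 5.85 in monoculture. Co-culture thus lay at 33.7% of the distance from monoculture to adenoma, and at 33.1% in P28 and 34.5% in P30.

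Mitosis genes followed the same order. Top2a, the topoisomerase that untangles chromosomes, lay at 10.41, 10.40, 9.91 and 10.00 in adenoma, 7.36 and 7.80 in co-culture and 5.76 and 6.33 in monoculture. Prc1, which bundles microtubules of the central spindle, lay at 9.85, 9.87, 9.92 and 9.98 in adenoma, 7.77 and 7.92 in co-culture and 5.45 and 6.63 in monoculture. Both genes kept their groups apart, and the 2 monocultures differed by more than the co-cultures, P30 being higher. Among all genes tested 19.0% rose in adenoma and 2.71% in co-culture. Of the 21 mitosis genes, 19 were graded up and 2 took the adenoma step only. In adenoma 17 rose, but 1 without P28, 8 without P30 and 9 where the close adenoma pairs were averaged. In co-culture limma called 0 of 21, with 10 higher at an unadjusted p under 0.05. With the animal as a replicate block it called 12 (random) or 21 (fixed), and 14 where only the 3 epithelial groups entered the fit. The adjusted p of the Top2a co-culture step (1.53 ± 0.64) was 0.241 and ran from 0.00354 to 0.742 over its alternatives. The list averaged 9.46 in adenoma, 7.54 in co-culture and 6.20 in monoculture, which put co-culture at 40.9% of the distance (41.2% in P28, 40.5% in P30).

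The promoters of graded genes were read for 8 short motifs in windows from 250 bases before to 50 bases after the annotated start, on both strands: E2F (TTTGGCG), TEAD (GGAATG), AP-1 (TGACTCA), TCF (CTTTGAT), HNF4 (CAAAGTC), HNF1 (GTTAATG), CDX (TTTATTG) and AHR (TNGCGTG). None of these letter strings contains another. E2F factors drive S-phase genes, and the E2F letters stood in 6.64% of the 271 promoters of graded up genes, in 30.4% of the 23 promoters of the replication list and in 1.94% of all 20611 promoters. The TEAD letters stood in 16.2% of the graded up promoters, in 18.0% of the 133 graded down promoters, in 61.5% of the 13 promoters of YAP and TEAD targets and in 13.5% of all. Below are the 250 bases before the start of Mcm5 (chr8:75109259-75109508, plus strand) and of Ptpn14 (chr1:189728018-189728267, plus strand), from RefSeq on GRCm38.p6. They are shown as a replication gene and a signalling gene with near equal steps, and the capitals mark the E2F letters in Mcm5 and the TEAD letters in Ptpn14, both as their reverse complement. A match is a string of letters and not a shown binding site.
Mcm5: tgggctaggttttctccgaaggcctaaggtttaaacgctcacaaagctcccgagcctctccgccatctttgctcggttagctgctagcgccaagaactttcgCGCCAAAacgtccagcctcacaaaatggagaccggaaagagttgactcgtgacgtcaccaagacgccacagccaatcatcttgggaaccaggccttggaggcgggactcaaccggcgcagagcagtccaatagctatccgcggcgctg
Ptpn14: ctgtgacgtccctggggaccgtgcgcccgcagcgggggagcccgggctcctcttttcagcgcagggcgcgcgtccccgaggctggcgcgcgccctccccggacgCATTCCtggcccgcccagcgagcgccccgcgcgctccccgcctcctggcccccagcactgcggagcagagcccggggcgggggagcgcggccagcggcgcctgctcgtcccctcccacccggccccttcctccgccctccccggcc

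Ptpn14, a phosphatase that binds and restrains YAP and is itself a YAP target, was among the 12 graded up genes with the largest smaller step. These genes were picked by their steps, so the p-values of those steps are a description. It lay at 9.17, 9.14, 9.03 and 8.82 in adenoma, 6.04 and 6.64 in co-culture and 4.08 and 4.17 in monoculture. It rose by 2.22 ± 0.21 in co-culture (adjusted p = 4.11e-04) and by 2.70 ± 0.18 in adenoma (adjusted p = 6.83e-07). Sorbs2, a cytoskeletal adaptor, lay at 9.10, 9.01, 8.57 and 8.43 in adenoma, 5.78 and 7.07 in co-culture and 3.84 and 4.31 in monoculture, and rose at both steps by 2.35, where its second probe set gave 0.55 and 1.61 and was adenoma only up. Its co-cultures differed by more than a full log2 unit, with P30 higher. Elk3, an ETS transcription factor, rose by 2.00 ± 0.26 and then by 2.24 ± 0.22, and Ppat, the first enzyme of purine synthesis, by 1.94 ± 0.31 and then by 3.02 ± 0.27. Rbpms, an RNA-binding protein, rose by 2.42 ± 0.47 and by 1.97 ± 0.41, and the spindle protein Ska2 by 2.09 ± 0.32 and 2.87 ± 0.28. A second probe set of Ska2 did not show this (-0.12 and 0.29). Syt16, a synaptotagmin, had 6.67 and 6.58 in adenoma animals P21 and P23 and 8.91 and 8.99 in P34 and P36, against 5.49 and 5.59 in co-culture and 3.64 and 3.60 in monoculture. Its co-culture step of 1.92 ± 0.72 was not called (adjusted p = 0.188, from 0.00394 without P34 and P36 to 0.65 without P28 over its alternatives), and the step of Iqgap3, a scaffold protein, of 1.89 ± 0.72 had an adjusted p of 0.197 (0.0211 with a random and 0.00532 with a fixed replicate block, up to 0.827 over its alternatives).

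**Figure D2:**
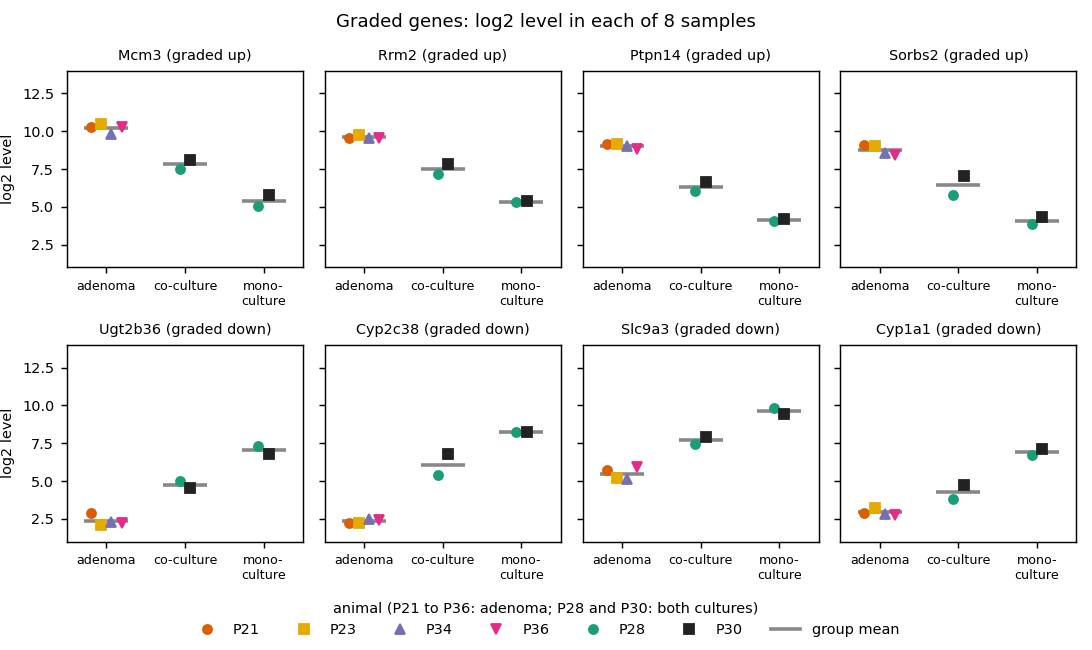
Log2 level in each sample of 4 graded up genes (Mcm3, Rrm2, Ptpn14, Sorbs2) and 4 graded down genes (Ugt2b36, Cyp2c38, Slc9a3, Cyp1a1), with adenoma left, co-culture in the middle and monoculture right. Points are animals and short lines are group means. In all 8 genes the co-culture points lie between the others without overlap, which the pick of all but Cyp1a1 required.

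Of 17 cyclins, kinases and inhibitors of the G1 phase, 4 were graded up. Ccnd1, which starts the exit from G1, lay at 11.11, 11.27, 11.18 and 10.96 in adenoma, 9.32 and 9.92 in co-culture and 6.01 and 6.70 in monoculture. Ccnd2, its relative, lay at 11.70, 11.57, 11.71 and 11.92 in adenoma, 10.55 and 10.88 in co-culture and 8.35 and 8.27 in monoculture. Both genes thus stood closer to adenoma than to monoculture in co-culture. The adenoma step of Ccnd2 minus its co-culture step was -1.39 ± 0.26 (adjusted p = 0.00944), whereas for Ccnd1 the difference of -1.75 ± 0.51 was not called (adjusted p = 0.0721). Their partner kinase Cdk6 rose by 2.19 ± 0.28 and then by 1.15 ± 0.25, and Ccne1, which acts at the entry to S phase, by 1.28 ± 0.28 and then by 1.93 ± 0.24. In this list 2 genes took only the adenoma step downward and 7 only upward. One of those 7 was Cdk4, a partner of Ccnd1, at 10.78, 10.88, 10.77 and 10.36 in adenoma, 8.79 and 9.20 in co-culture and 8.66 and 8.75 in monoculture. The inhibitors Cdkn2a and Cdkn2c also took the adenoma step, by 1.71 ± 0.46 and 2.16 ± 0.49, and the retinoblastoma gene Rb1 fell there by 1.51. In all, 4 rose in co-culture, and 12 rose and 1 fell in adenoma. Over all genes tested, 2.71% rose in co-culture, and 19.0% rose and 14.3% fell in adenoma.

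Ribosome biogenesis rose at both steps, but mostly by less than the class threshold at the first. In co-culture 9 of 19 genes rose and in adenoma 18 of 19, beside 2.71% and 19.0% over all genes tested, and none fell. The replicate block called 17 (random) or 14 (fixed) in co-culture, while 0 were called without P28 and 0 without P30 (17 were higher at an unadjusted p under 0.05 in the fit with both). Nop56, a nucleolar protein of snoRNA particles, lay at 10.93, 10.81, 10.92 and 10.80 in adenoma, 9.32 and 9.51 in co-culture and 8.15 and 8.16 in monoculture. It was graded up together with the nucleolar GTPase Gnl3, and their co-culture steps were 1.25 ± 0.20 and 1.00 ± 0.21. Both other probe sets of Nop56 gave smaller co-culture steps (0.24 and 0.73) and were adenoma only up. Polr1a, the largest subunit of RNA polymerase I, stood just outside the class with 0.99 ± 0.18 in co-culture and 1.31 ± 0.15 in adenoma, and Wdr12, a ribosome assembly factor, with 0.96 ± 0.15 and 1.55 ± 0.13. All 4 genes rose at both steps. The list averaged 9.41 in adenoma, 8.16 in co-culture and 7.37 in monoculture, with co-culture at 38.4% of the distance.

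Wnt targets split between the steps. Myc, the growth regulator, lay at 10.91, 10.71, 10.37 and 10.13 in adenoma, 9.23 and 9.41 in co-culture and 7.23 and 7.81 in monoculture. Cd44, a hyaluronan receptor, lay at 10.76, 10.69, 9.73 and 9.60 in adenoma, 8.23 and 8.01 in co-culture and 6.10 and 6.73 in monoculture. Myc, Cd44 and Ccnd1 were the 3 graded members of 21 and the only ones called in co-culture, where the replicate block called 5 (random) or 4 (fixed) and leaving out P28 or P30 left 1. The feedback inhibitor Axin2, in contrast, lay at 10.06, 9.84, 8.06 and 7.55 in adenoma, 5.06 and 4.42 in co-culture and 5.16 and 5.37 in monoculture. The stem cell factor Ascl2 lay at 8.65, 8.45, 8.26 and 8.52 in adenoma, 4.07 and 3.59 in co-culture and 4.15 and 3.76 in monoculture. In both genes co-culture overlapped or lay under monoculture, and only adenoma stood apart. For Axin2 the adenoma step exceeded the co-culture step by 4.66 ± 1.11 (adjusted p = 0.031) and for Ascl2 by 4.78 ± 0.56 (adjusted p = 4.13e-04). Sox9, a crypt transcription factor, and the Wnt receptor ligases Rnf43 and Znrf3 rose in adenoma by 3.15, 2.55 and 1.89, with co-culture steps of 0.36, 0.01 and 0.31 that were not called. In adenoma 13 of the 21 Wnt targets rose and 2 fell, beside 19.0% higher and 14.3% lower over all genes tested. The fallen pair was Prox1, a transcription factor, and Tgfbi, an adhesion protein.

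Of 15 genes that mark Lgr5 stem cells, 9 took the adenoma step upward only, 1 downward only and none was graded. In co-culture limma called 0 of 15 (1 higher at an unadjusted p under 0.05, and 1 or 2 with a random or fixed replicate block). In adenoma 11 rose and 1 fell, beside 19.0% higher and 14.3% lower over all genes tested. The fallen gene was Olfm4, a secreted stem cell marker, at 6.66, 7.16, 2.85 and 2.84 in adenoma P21, P23, P34 and P36 against 8.00 and 7.64 in co-culture and 7.45 and 7.24 in monoculture. Its level was near that of the cultures in P21 and P23 and low in P34 and P36. Lgr5 lay at 5.09, 4.99, 4.48 and 4.48 in adenoma, 3.81 and 4.24 in co-culture and 4.25 and 4.17 in monoculture, a rise of 0.74 ± 0.25 in adenoma (adjusted p = 0.0374) that its second probe set gave as 3.69. The stem cell list averaged 7.62 in adenoma, 5.98 in co-culture and 5.84 in monoculture, so co-culture lay at 7.79% of the distance, set beside 40.9% for mitosis.

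**Figure D3:**
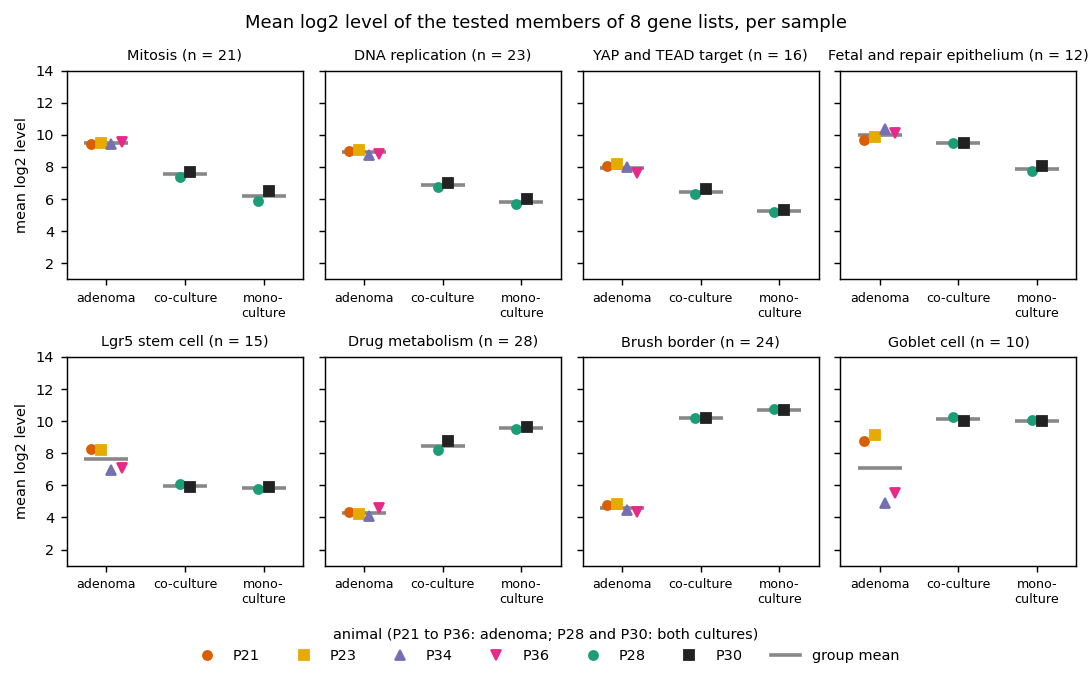
Mean log2 level over 8 gene lists in each sample (points are animals, short lines group means), with adenoma left, co-culture in the middle and monoculture right. Mitosis, DNA replication and YAP and TEAD targets step up at both steps, Lgr5 stem cell genes step up once in adenoma, and brush border genes fall almost wholly in adenoma.

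Targets of YAP and TEAD reached 44.2% of the distance in co-culture (39.8% in P28, 48.8% in P30), averaging 7.96 in adenoma, 6.46 in co-culture and 5.27 in monoculture. In co-culture 7 of 16 rose and none fell (1 without P28, 3 without P30), and in adenoma 9 rose and 1 fell. The shares over all genes tested were 2.71% higher in co-culture, and 19.0% higher and 14.3% lower in adenoma. Ccn1, a secreted matrix protein, lay at 10.70, 10.72, 10.17 and 9.39 in adenoma, 7.67 and 7.90 in co-culture and 5.93 and 6.18 in monoculture. It rose at both steps, by 1.73 ± 0.35 and 2.46. Ccn2, its relative, lay at 9.35, 9.78, 9.34 and 8.50 in adenoma, 6.03 and 6.61 in co-culture and 4.80 and 4.53 in monoculture. Its co-culture step of 1.65 ± 0.42 had an adjusted p of 0.0527, which ran from 0.00409 (random replicate block) to 0.523 over its alternatives, and its second probe set stayed flat (0.00 and 0.14). Ankrd1, a nuclear ankyrin protein, had 9.34, 9.34, 7.86 and 7.11 in adenoma against 3.60 and 4.90 in co-culture and 3.77 and 4.02 in monoculture, and so took the adenoma step only. Ajuba, a LIM protein that holds the YAP kinase Lats in check, took the co-culture step only: it lay at 10.21, 10.44, 10.45 and 10.24 in adenoma, 9.40 and 9.77 in co-culture and 6.48 and 7.36 in monoculture. Amotl1, an angiomotin that binds YAP, rose by 2.20 ± 0.28 in co-culture and fell by 0.75 in adenoma. Tead1, a TEAD factor itself, averaged 7.62, 6.98 and 5.90 in adenoma, co-culture and monoculture and rose at both steps (adjusted p = 0.00148 for adenoma and 0.00196 for co-culture).

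Ajuba is shown as the co-culture-only target whose promoter held the TEAD letters more than once. The 250 bases before its start (chr14:54577662-54577911, minus strand, RefSeq on GRCm38.p6) carry 2 copies, in capitals as the reverse complement. These letters stood in 15.1% of the 232 promoters of genes higher in co-culture only and in 17.6% of the 91 of genes lower in co-culture only, set beside 13.5% of all promoters.
Ajuba: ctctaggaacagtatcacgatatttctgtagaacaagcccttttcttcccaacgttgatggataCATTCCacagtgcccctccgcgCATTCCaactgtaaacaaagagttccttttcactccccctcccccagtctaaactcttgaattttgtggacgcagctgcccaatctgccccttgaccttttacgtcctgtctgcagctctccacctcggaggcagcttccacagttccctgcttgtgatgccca

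Fetal and repair epithelium genes had gone most of the way in co-culture. Their mean was 10.01 in adenoma, 9.49 in co-culture and 7.88 in monoculture, so co-culture lay at 75.5% of the distance (76.5% in P28, 74.4% in P30). In co-culture 9 of 12 rose and none fell (1 without P28, 4 without P30), and in adenoma 5 rose and 2 fell. Anxa1, a calcium-dependent membrane protein, averaged 11.71 in adenoma, 10.68 in co-culture and 8.71 in monoculture and was graded, as were Clu, a secreted chaperone, and Il33, an alarmin. Il33 lay at 8.63, 8.51, 8.13 and 7.63 in adenoma, 6.87 and 7.10 in co-culture and 5.06 and 4.42 in monoculture. Anxa3 and the surface antigen Msln took the co-culture step only, with adenoma steps of 0.84 and 0.96 just under the threshold. Anxa8 turned round: it lay at 8.58, 9.16, 9.27 and 9.17 in adenoma, under the 10.22 and 9.91 of co-culture and above the 7.03 and 7.65 of monoculture. Gja1, a gap junction protein, rose in adenoma only, by 4.98 ± 0.59. The mean of the 8 plasminogen activators and serpins stood at 93.7% of the distance (88.0% in P28, 100.3% in P30), though its members moved in unlike ways. By class, 1 was graded up, 3 were co-culture only up, 2 adenoma only up, 1 adenoma only down, and 1 peaked in co-culture. In co-culture 4 of 8 rose. In adenoma 1 rose and 2 fell, beside 19.0% higher and 14.3% lower over all genes tested.

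The downward gradient was led by enzymes that detoxify food compounds and drugs. Ugt2b36, which attaches glucuronic acid, lay at 2.89, 2.13, 2.30 and 2.22 in adenoma, 4.98 and 4.55 in co-culture and 7.32 and 6.81 in monoculture. The cytochrome P450 Cyp2c38 lay at 2.20, 2.23, 2.48 and 2.46 in adenoma, 5.40 and 6.80 in co-culture and 8.24 and 8.24 in monoculture. The 3 groups were apart in both genes, as their pick required. Most adenoma values lay under 2.67, the level under which a gene counted as dim. Ugt2b36 fell by 2.30 ± 0.28 in co-culture (adjusted p = 0.00181) and by 2.38 ± 0.24 in adenoma (adjusted p = 2e-05). Cyp1a1, the P450 induced through the aryl hydrocarbon receptor, had 2.90, 3.24, 2.85 and 2.77 in adenoma, against 3.82 and 4.76 in co-culture and 6.74 and 7.14 in monoculture. It fell by 2.65 ± 0.32 in co-culture and by 1.35 ± 0.28 in adenoma, and the difference between its steps (1.29 ± 0.53) was not called (adjusted p = 0.192). The glucuronosyltransferase Ugt2b5, the alcohol dehydrogenase Adh4 and the nuclease Dnase1 fell further in adenoma than in co-culture, with differences between the steps of -3.39 ± 0.64, -2.53 ± 0.61 and -2.59 ± 0.41 (adjusted p = 0.00948, 0.0334 and 0.00332). Cyp2d13, Cyp2j9 and the carboxylesterase Ces1g also fell at both steps.

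Of the 28 drug metabolism genes tested, 11 were graded down, 2 took only the co-culture step downward and 15 only the adenoma step. In co-culture 10 fell and none rose (2 without P28, 7 without P30), and in adenoma 26 fell. Among all genes tested 1.32% fell in co-culture and 14.3% in adenoma. Nr1i3, the nuclear receptor CAR that switches on such enzymes, was graded with 3.52 in adenoma, 7.57 in co-culture and 9.04 in monoculture. Its relative Nr1i2, the receptor PXR, had 5.78, 9.41 and 9.89 and took the adenoma step only. Cyp2c66 and Cyp3a11 took the adenoma step only, though the co-culture step of Cyp2c66 had an adjusted p of 0.16 (0.0349 with a random and 0.159 with a fixed replicate block, up to 0.816 over its alternatives). Cyp3a11 had 2.74, 2.60, 2.79 and 3.35 in adenoma, against 7.82 and 8.95 in co-culture and 8.60 and 9.09 in monoculture. The list averaged 4.29 in adenoma, 8.45 in co-culture and 9.55 in monoculture, with co-culture at 20.9% of the distance (25.2% in P28, 16.7% in P30). The letters of HNF4, a factor of gut and liver enzyme genes, stood in 21.4% of the 28 promoters of this list, in 6.77% of the 133 of graded down genes, in 6.35% of the 1292 of genes lower in adenoma only and in 4.29% of all promoters. The 6 list promoters that held them belonged to Cyp2c29, Cyp2c65, Cyp2c66, Cyp3a11, Gstm3 and Sult1b1. All of these genes took the adenoma step only, and none was graded. Hnf4a itself averaged lower in adenoma by 1.25 ± 0.27 (adjusted p = 0.00379), with a co-culture step of 0.05 ± 0.32. The 250 bases before the start of Cyp3a11 (chr5:145879855-145880104, minus strand, RefSeq on GRCm38.p6) are shown as a list member that held the HNF4 letters, here in capitals on the gene's own strand.
Cyp3a11: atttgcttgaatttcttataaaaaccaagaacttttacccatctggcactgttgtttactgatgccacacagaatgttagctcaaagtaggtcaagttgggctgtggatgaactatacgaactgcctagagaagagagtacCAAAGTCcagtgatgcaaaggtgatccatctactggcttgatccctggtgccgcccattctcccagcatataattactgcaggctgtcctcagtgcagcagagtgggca

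Transport and nutrient absorption changed mostly in adenoma. Slc9a3, the sodium-proton exchanger of the brush border, was graded: it lay at 5.72, 5.19, 5.13 and 5.91 in adenoma, 7.46 and 7.95 in co-culture and 9.86 and 9.42 in monoculture. Lactase (Lct) lay at 3.05, 3.10, 3.13 and 2.75 in adenoma, 8.19 and 6.69 in co-culture and 9.86 and 8.38 in monoculture. Its groups did not overlap and P28 was higher in both cultures. Its co-culture step of -1.68 ± 0.52 was not called (adjusted p = 0.104, from 0.00365 with a fixed replicate block to 0.552 over its alternatives). The peptidase Mep1a and the inositol transporter Slc5a11 fell at both steps. Of 24 brush border and absorption genes, 3 were graded down and 21 took the adenoma step only. In co-culture 4 fell (8 with a random and 6 with a fixed replicate block, 0 without P28 and 1 without P30), and in adenoma all 24 fell. The shares that fell over all genes tested were 1.32% in co-culture and 14.3% in adenoma. The brush border list averaged 4.61 in adenoma, 10.18 in co-culture and 10.72 in monoculture, so co-culture lay at 8.85% of the distance. Of 15 genes of fatty acid oxidation, 3 fell in co-culture (6 or 4 with the replicate block, 0 without P28 and 0 without P30) and 14 in adenoma. Ppargc1a, a coactivator of mitochondrial genes, and Acaa1b, a peroxisomal thiolase, were graded, with adenoma steps of -1.49 ± 0.34 and -2.62 ± 0.29 and co-culture steps of -1.70 ± 0.39 and -1.53 ± 0.34. The chemokine Ccl25, which draws lymphocytes to the small intestine, fell at both steps, by 1.88 ± 0.38 in co-culture and 2.15 ± 0.33 in adenoma.

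Several keratins, adhesion genes and signalling genes stepped in co-culture only. Krt4, a keratin of stratified epithelium, lay at 9.68, 9.16, 8.53 and 8.23 in adenoma, 9.65 and 9.68 in co-culture and 5.52 and 6.88 in monoculture. Krt80 lay at 8.26, 8.50, 8.50 and 8.81 in adenoma, 7.63 and 7.89 in co-culture and 5.12 and 4.09 in monoculture. Monoculture was apart and the other groups were close in both, as their pick required. The difference between their steps reuses the values of that pick and is a description. The steps differed by -4.24 ± 0.75 for Krt4 (adjusted p = 0.00629) and by -2.41 ± 0.52 for Krt80 (adjusted p = 0.0198). Of 12 keratins tested, 6 took the co-culture step only, and 3 rose there (6 with a random and 4 with a fixed replicate block, 1 without P28 and 2 without P30). The share that rose in co-culture over all genes tested was 2.71%. Krt6a, a keratin of wounds, had 6.52 and 7.13 in adenoma P21 and P23 and 2.50 and 1.97 in P34 and P36, 5.44 and 2.01 in co-culture and 2.12 and 1.83 in monoculture. It was thus high in 3 samples of unlike groups and was not called. Krt20, the keratin of mature enterocytes, lay at 6.51, 7.30, 8.52 and 7.99 in adenoma, 12.56 and 12.28 in co-culture and 12.26 and 12.19 in monoculture, and fell in adenoma only.

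**Figure D4:**
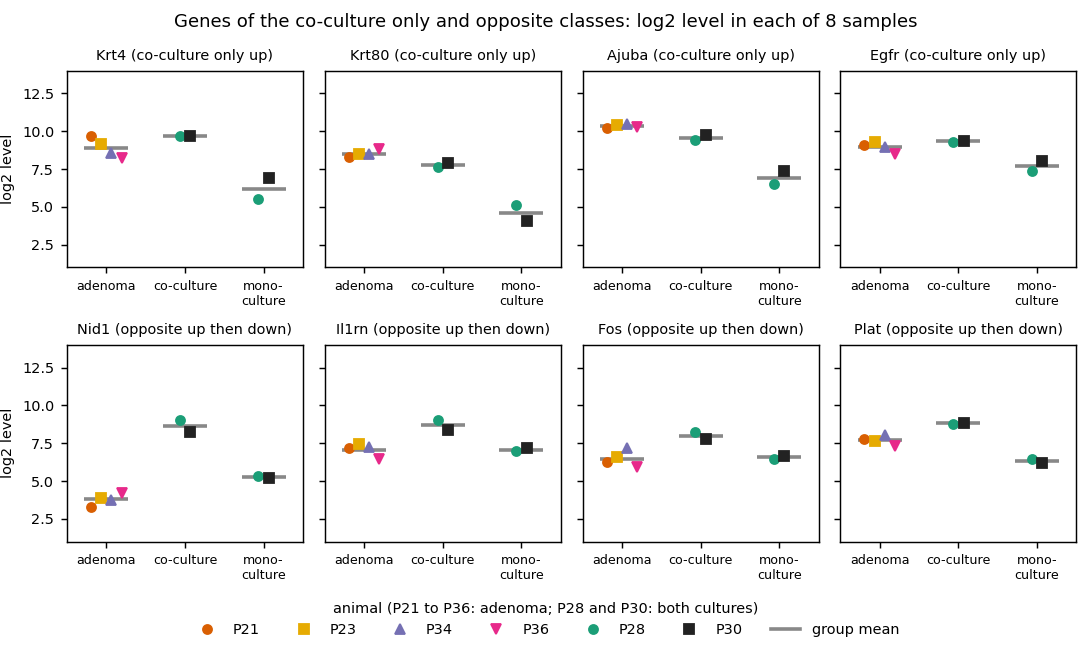
Log2 level in each sample of 8 genes with a co-culture step upward: Krt4, Krt80, Ajuba and Egfr (co-culture only) and Nid1, Il1rn, Fos and Plat (opposite steps). Adenoma is left, co-culture in the middle and monoculture right, points are animals and short lines group means. Krt4, Krt80, Ajuba and Egfr stay high in adenoma, and Nid1, Il1rn, Fos and Plat are highest in co-culture.

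Egfr, the receptor of epidermal growth factor, lay at 9.07, 9.26, 8.97 and 8.52 in adenoma, 9.30 and 9.35 in co-culture and 7.40 and 8.05 in monoculture. It rose by 1.60 ± 0.27 in co-culture (adjusted p = 0.00832), and its adenoma step of -0.36 ± 0.24 differed from its co-culture step by -1.96 ± 0.45 (adjusted p = 0.0268). Plaur, the urokinase receptor, rose by 1.94 ± 0.25 in co-culture and then differed by 0.38 ± 0.22. Lama3, a chain of epithelial laminin, rose by 2.01 ± 0.28, the hexokinase Hk2 by 1.76 ± 0.21, and the glucose transporter Slc2a1 by 1.11 ± 0.23, whose second probe set gave 0.26. Of 14 basement membrane genes 5 rose in co-culture (Lama3, Lama5, Lamb2, Lamc1 and Nid1; 1 without P28, 2 without P30), and 5 rose and 1 fell in adenoma. None of Plaur, Lama3, Hk2 and Slc2a1 had an adenoma step past the test. Nr4a1, an early-response nuclear receptor, rose by 1.99 ± 0.41 in co-culture and lay at 8.29, 8.19, 7.34 and 6.76 in adenoma, 7.77 and 7.36 in co-culture and 5.50 and 5.67 in monoculture. The growth factors Hbegf and Btc stepped by 1.03 ± 0.60 and 1.16 ± 0.65 in co-culture and were not called (adjusted p = 0.447 and 0.417). Hbegf was called in the fit of the 3 epithelial groups (0.0295, and up to 0.872 over its alternatives), and Btc with a fixed replicate block (0.0359, and up to 0.919). In the list of EGF ligands, receptors and feedback genes, 2 of 22 rose in co-culture, Egfr and the graded Phlda1. The replicate block called 4 (random) or 3 (fixed), and the list mean rose by 0.55 in P28 and 0.33 in P30. In adenoma 5 rose and 2 fell, beside 19.0% higher and 14.3% lower over all genes tested.

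Downward, 101 genes stepped in co-culture only. Ces3a, a carboxylesterase, lay at 2.30, 2.33, 2.54 and 2.11 in adenoma, 3.19 and 3.43 in co-culture and 5.14 and 5.06 in monoculture. Cyp2j5 lay at 2.63, 2.52, 2.46 and 2.31 in adenoma, 2.72 and 3.96 in co-culture and 4.59 and 6.11 in monoculture. All adenoma values of both genes were under 2.67, the dim level. Ces3a fell at both steps, by 1.79 ± 0.18 in co-culture and by 0.99 ± 0.16 in adenoma, and Cyp2j5 in co-culture, by 2.01 ± 0.43. Kit, the stem cell factor receptor, had 5.18 and 5.40 in adenoma P21 and P23 and 3.13 and 3.10 in P34 and P36, 5.03 and 5.07 in co-culture and 6.94 and 6.71 in monoculture, with a co-culture step of -1.78 ± 0.65 that was not called (adjusted p = 0.179, and 0.0297 with a random or 0.207 with a fixed replicate block, from 0.000689 without P34 and P36 to 0.712 over its alternatives). In this class the replicate block called the co-culture step in 87 (random) or 63 (fixed) of 100 genes, in place of 46. The count of this class was the most variable of the larger ones, with 179 genes without P28 and 223 without P30, in place of the 100 tested.

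The adenoma-only class held the largest differences. Sis, the brush border sucrase-isomaltase, lay at 2.95, 2.91, 2.46 and 2.10 in adenoma, 12.11 and 12.15 in co-culture and 12.47 and 12.47 in monoculture. The retinol carrier Rbp2, the apolipoprotein Apoa4, the peptidase Enpep and the fatty acid carrier Fabp1 fell in adenoma by 8.07 to 8.39. Their co-culture steps of -0.82 to -0.06 were not called in limma's unblocked fit. With a random or fixed replicate block the co-culture step of Enpep had an adjusted p of 0.0311 or 0.0323 (up to 0.719 over its alternatives) and that of Fabp1 of 0.0159 or 0.0602 (up to 0.539). Upward, Gabrp, a GABA receptor subunit, lay at 9.50, 10.28, 9.35 and 8.39 in adenoma, 2.20 and 2.89 in co-culture and 3.00 and 2.55 in monoculture. Msn, which links membrane and actin, lay at 10.26, 10.63, 10.14 and 9.49 in adenoma, 3.77 and 3.59 in co-culture and 3.68 and 3.53 in monoculture. The matrix protein Fn1, the P450 Cyp1b1 and the actin regulator Enah rose in adenoma by 6.35 ± 0.42, 5.93 ± 0.41 and 5.58 ± 0.29. Msn, Fn1, Cyp1b1 and Enah were also high in fibroblasts of the series, at 12.20, 12.80, 10.84 and 9.31 in monoculture. The fibroblast collagen Col1a1 and Vim, a mesenchymal filament, lay in adenoma between 3.80 and 4.35 and between 4.69 and 5.08. Acta2 of the fibroblast list was adenoma only up, and the source of these signals was not tested. In bulk samples fewer cells of a type and less RNA per cell cannot be told apart.

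Several goblet and Paneth cell genes lay near monoculture in co-culture and divided the adenoma animals. Lyz1, the Paneth cell lysozyme, had 11.75 and 12.20 in adenoma P21 and P23 and 3.20 and 2.72 in P34 and P36, against 11.47 and 11.50 in co-culture and 11.41 and 11.84 in monoculture. Muc2, the goblet cell mucin, had 8.13 and 9.38 in P21 and P23 and 3.53 and 3.92 in P34 and P36, against 12.00 and 11.57 in co-culture and 11.68 and 11.71 in monoculture. For Muc2 all adenoma animals lay below the cultures, and for Lyz1 only P34 and P36 did. The adenoma step of Lyz1 was -4.02 ± 2.29 and was not called (adjusted p = 0.218), whereas Muc2 fell by 5.54 ± 1.30 (adjusted p = 0.00592). Of 10 goblet genes 6 fell in adenoma (0 without P28, 1 without P30, 9 without P21 and P23), and of 8 Paneth genes 5 (2 without P28, 3 without P30, 8 without P21 and P23). In co-culture limma called 0 of 10 and 0 of 8, where 0 and 1 had an unadjusted p under 0.05 and the random replicate block called 0 and 1. Averaged, goblet genes lay at 7.06 ± 2.18 in adenoma (SD, n = 4), 10.13 in co-culture and 10.02 in monoculture. Of 12 enteroendocrine genes 6 fell in adenoma, and of 10 tuft cell genes 1 rose and 3 fell. Over all genes tested, 19.0% were higher and 14.3% lower in adenoma. In co-culture limma called 0 of either list, where 2 of each were lower at an unadjusted p under 0.05 and the replicate block called 2 of each lower (random) or 0 (fixed). The tuft list averaged 3.84 in adenoma, 4.14 in co-culture and 4.61 in monoculture, with a co-culture step of -0.47 (-0.52 in P28 and -0.42 in P30) and an adenoma step of -0.30, a difference between steps that was not tested. Chgb, a granin of enteroendocrine cells, had 2.66, 3.17, 2.92 and 2.58 in adenoma, against 8.70 and 9.29 in co-culture and 8.67 and 9.16 in monoculture. Cldn3, a tight junction protein, split like Lyz1, with 11.40 and 11.28 in P21 and P23 and 4.15 and 4.26 in P34 and P36, and 12.00 and 11.83 in co-culture and 11.75 and 11.80 in monoculture.

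Of the 88 genes with opposite steps, 78 peaked in co-culture. Nid1, a linker of the basement membrane, lay at 3.31, 3.91, 3.76 and 4.20 in adenoma, 9.07 and 8.26 in co-culture and 5.36 and 5.23 in monoculture. It rose by 3.37 ± 0.31 in co-culture and fell by 4.87 ± 0.27 in adenoma, and its second probe set gave 3.07 and -4.00. Fibroblasts of the series had Nid1 at 11.91 in co-culture and 12.06 in monoculture. Col1a1 lay at 4.19 and 3.80 in the epithelial co-cultures, and the source of the Nid1 signal was not tested. Clca4a, a chloride channel regulator, lay at 2.87, 3.17, 2.98 and 2.47 in adenoma, 8.78 and 7.74 in co-culture and 6.24 and 5.14 in monoculture, but its second probe set was flat at the first step (-0.06). The surface proteins Ly6m and Gml rose in co-culture by 2.45 ± 0.31 and 1.89 ± 0.24 and fell in adenoma by 3.94 ± 0.26 and 2.86 ± 0.21. Plat, the tissue plasminogen activator, lay at 7.79, 7.68, 8.06 and 7.33 in adenoma, 8.77 and 8.87 in co-culture and 6.49 and 6.19 in monoculture. Adenoma thus stood between the cultures for Plat and under both for Nid1 and Clca4a. Isx, an intestinal homeobox gene, had 7.39 and 6.95 in P21 and P23 and 2.96 and 2.65 in P34 and P36, against 9.68 and 9.38 in co-culture and 5.74 and 6.92 in monoculture, with a co-culture step not called (adjusted p = 0.24).

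Fos, Il1rn and Emp1 were among the genes that peaked in co-culture. Fos, a subunit of AP-1, lay at 6.27, 6.58, 7.17 and 5.97 in adenoma, 8.23 and 7.76 in co-culture and 6.46 and 6.67 in monoculture. Il1rn, the antagonist of the interleukin 1 receptor, lay at 7.18, 7.47, 7.23 and 6.46 in adenoma, 9.05 and 8.37 in co-culture and 6.96 and 7.19 in monoculture. Adenoma and monoculture overlapped in both genes, and co-culture was apart. Fos rose by 1.43 ± 0.32 in co-culture and fell again in adenoma (adjusted p = 0.0012), and Il1rn rose by 1.64 ± 0.33 and fell by 1.63 ± 0.29. Emp1, an epithelial membrane protein, rose by 1.05 in co-culture and fell by 1.24 in adenoma. Of 15 AP-1 and immediate early genes only Fos and Nr4a1 rose in co-culture (6 with a random and 3 with a fixed replicate block, 0 without P28 and 0 without P30). In adenoma 2 rose (Jun and Ier3) and 2 fell (Fos and Jund), beside 19.0% higher and 14.3% lower over all genes tested. The AP-1 letters stood in 19.4% of the 67 promoters of genes that peaked in co-culture, in 6.47% of the 232 of genes higher in co-culture only, in 1.85% of the 271 of graded up genes and in 4.78% of all promoters. The 250 bases before the first of the 3 listed starts of Il1rn (chr2:24336610-24336859, plus strand) and before a start of Emp1 (chr6:135362681-135362930, plus strand; RefSeq, GRCm38.p6) are shown as peaking genes that held them. Capitals mark the AP-1 letters as their reverse complement.
Il1rn: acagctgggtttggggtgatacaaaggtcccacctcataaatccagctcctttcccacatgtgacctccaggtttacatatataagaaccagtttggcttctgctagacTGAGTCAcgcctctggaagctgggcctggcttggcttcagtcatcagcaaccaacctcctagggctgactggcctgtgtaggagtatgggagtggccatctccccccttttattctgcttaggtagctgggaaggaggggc
Emp1: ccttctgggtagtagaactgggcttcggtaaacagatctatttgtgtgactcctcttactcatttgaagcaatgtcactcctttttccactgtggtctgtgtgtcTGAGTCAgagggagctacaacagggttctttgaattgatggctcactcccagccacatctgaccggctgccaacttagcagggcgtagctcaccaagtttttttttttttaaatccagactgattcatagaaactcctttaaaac

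Opposite steps with the lowest level in co-culture were taken by 10 genes, of which limma called the co-culture step in 1, or in 7 with a random and 3 with a fixed replicate block. Cryz, a quinone reductase, lay at 5.51, 5.44, 6.06 and 6.24 in adenoma, 4.93 and 4.60 in co-culture and 6.46 and 5.78 in monoculture, and was the 1 gene of this class with both steps called. Ddit4l, an inhibitor of mTOR, and the protease Habp2 rose in adenoma by 2.84 ± 0.47 and 3.28 ± 0.34, with co-culture steps of -1.45 ± 0.54 and -1.16 ± 0.39. The co-culture step of Ddit4l had an adjusted p of 0.186 (0.0145 with a random and 0.00184 with a fixed replicate block, up to 0.694 over its alternatives), and that of Habp2 of 0.135 (0.0323 and 0.123, up to 0.592). This class held 28 genes without P28 and 31 without P30.

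**Figure D5:**
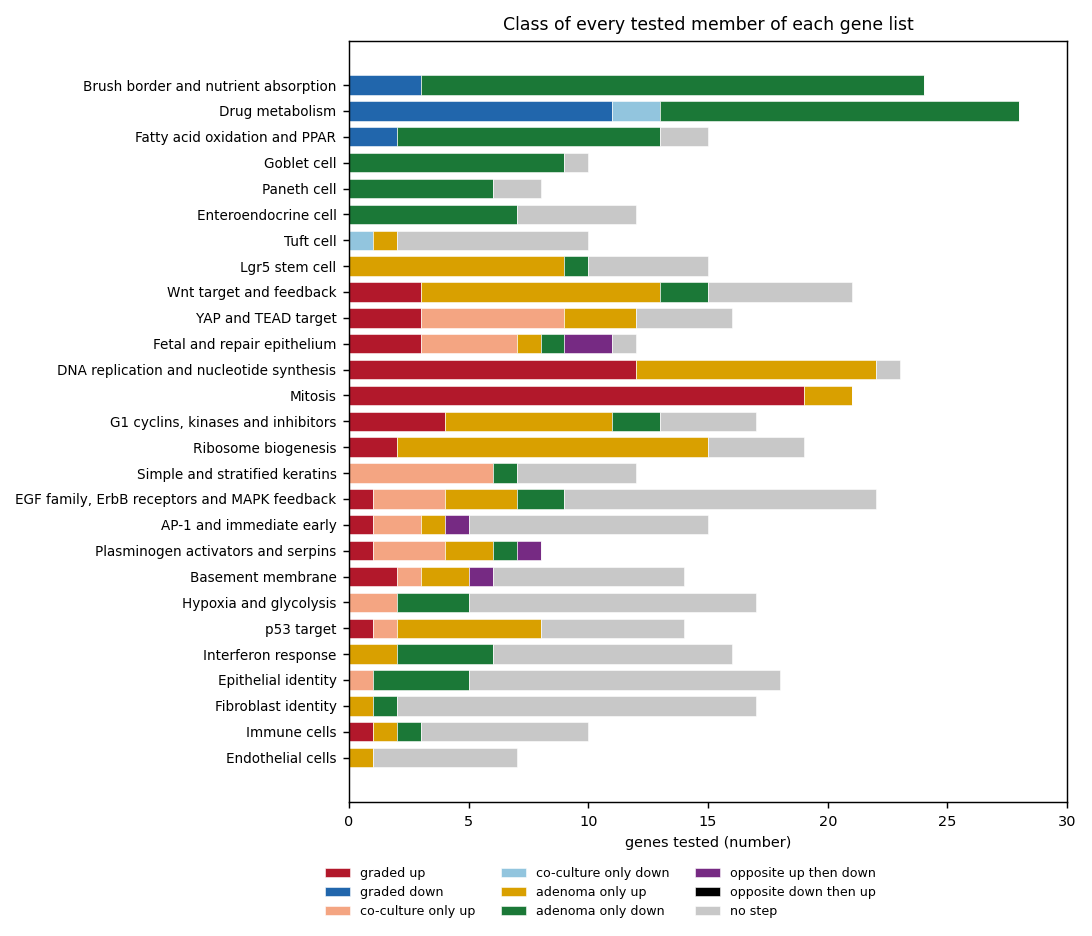
Members of 27 gene lists by class, as stacked bars of the number of genes tested (horizontal axis). Mitosis is almost wholly graded up (19 of 21), drug metabolism is divided between graded down (11) and adenoma only down (15 of 28), and brush border is almost wholly adenoma only down (21 of 24).

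Between co-cultured and monocultured fibroblasts, limma called 1 gene (0.00553%) of the 18095 in the unblocked fit, and that gene was in none of the step classes. With the fibroblast animal as a replicate block, added after seeing the data and taken from the titles (the source name of the third monoculture gives the animal of the second), 3 genes were called (random) or 4 (fixed), of which 1 or 0 were in a step class. Over all genes tested, limma called 2.71% higher and 1.32% lower in co-culture, and 19.0% higher and 14.3% lower in adenoma. Beside these shares, of 17 hypoxia and glycolysis genes 2 rose in co-culture and 3 fell in adenoma. Of 14 p53 targets limma called 0 in co-culture (3 higher at an unadjusted p under 0.05; 3 with a random and 2 with a fixed replicate block), and 9 rose in adenoma. Of 16 interferon response genes 0 were called in co-culture (0 at an unadjusted p under 0.05, 0 with either replicate block), and 2 rose and 2 fell in adenoma. Of 18 epithelial identity genes 1 rose in co-culture, and 2 rose and 5 fell in adenoma. Graded up genes had a median level of 7.26 in monocultured fibroblasts and graded down genes of 3.33. Other probe sets of the same genes are a further measure that the classes did not use. Of 22 second probe sets of graded up genes bright enough to read, 16 had both steps in the same direction and 1 reached the class, and of 5 for graded down genes 5 and 1. For co-culture only genes upward 11 of 13 kept both signs and 8 the class, and downward 2 of 4 and 0. For adenoma only genes upward 51 of 100 kept both signs and 29 the class, and downward 49 of 61 and 27. Of genes that peaked in co-culture 4 of 5 kept both signs and 2 the class. Among genes with no step 406 of 882 kept both signs.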

How the data were processed

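RNA of 14 biological samples was measured on 16 arrays, 8 samples of which form the 3 groups compared. The deposited values are log2 levels made by the authors with RMA, per the submitters' processing notes. For the library file and build, nothing is given in the sources used here. Repeat arrays of an animal were averaged. Of 41345 probe sets, 23521 had 1 symbol, 1814 several and 16010 were unnamed here. The brightest probe set stood for each of 22180 genes, and 18095 with a group mean above 2.67 entered limma (3.58.1, R 4.3.3) over all 5 groups of the series, which share 1 estimate of spread. The step in adenoma minus the step in co-culture was tested in the same fit. Scripts were tested on simulated data. Per the labels, cultures with the same animal number share that animal, and their deviations correlated at 0.328 (epithelium) and 0.51 to 0.786 (fibroblasts). Named genes are, first, the 12 graded each way with the largest smaller step and the 8 each way of every other class. Those 8 had the largest step of their class, or the largest smaller step for opposite genes. These class picks were made among genes whose groups did not overlap. Up to 4 members of each of 28 lists with the largest step of each kind, and a few set genes, were named without that condition. Other list members and the promoter genes were named after their values were seen. The groups, lists and members were chosen with earlier results of these data known. Alternatives were the replicate block, the samples in the fit, the scaling, the filter, the probe set, the step size and left-out samples. Averaging the close adenoma pairs, leaving out a pair, or blocking the fibroblasts by animal was chosen after seeing the data. Columns of per-sample values not used numbered 0.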

Additional observations from a re-analysis of the deposited data

Results flagged for a closer look

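In 4 of 113 groups of adenoma samples, 1 animal stood apart from the other 3, where chance gives about 1 in 20. Rrm2, the ribonucleotide reductase subunit, lay at 9.72 in P23, and the other adenoma animals lay within 0.02 of each other below it. Gml, a surface protein, lay at 4.40 in P34, and Cfi, complement factor I, at 6.32 in P34. The enteroendocrine list averaged 3.40 in the adenoma animal that stood apart.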

How the results depend on the processing

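No called step of a named gene changed sign under an alternative, but cyclic loess, run on the 3 epithelial groups, turned the adenoma split to 2766 higher and 3046 lower (3384 and 2622 in those groups without it). Without P34 and P36, chosen after seeing the data, 2 graded up genes were called lower in adenoma. With the animal as a replicate block, the co-culture step was called in 2460 genes (random; 729 of them shared with the unblocked 729) or 1370 (fixed; 713 shared), and the difference between steps in 2334 (random) in place of 1094. Without P28 the co-culture step was called in 49 genes (38 shared), the adenoma step in 3667 and the difference in 241. Without P30 the co-culture step was called in 165 (136 shared) and the difference in 367. Leaving out 1 sample at a time gave 202 to 704 genes for the co-culture step, 3864 to 5920 for the adenoma step and 286 to 1000 for the difference. It gave 95 to 192 genes for co-culture only down, 77 to 138 for up-then-down and 10 to 47 for down-then-up. Without P28 and P30 in turn, co-culture only down held 179 and 223 genes and down-then-up 28 and 31, and up-then-down held 120 without P30. Without P21 and P23, chosen after seeing the data, down-then-up held 17. With steps of at least 0.5 the classes held 1027 graded up, 695 graded down, 526 and 728 co-culture only up and down, 2632 and 1977 adenoma only up and down, and 331 and 183 opposite genes. With steps of at least 1.5 they held 62, 30, 127, 20, 842, 834, 21 and 3 genes in the same order. The causes were not tested. With 2 animals per culture group the precision of the co-culture step is limited, and dim genes have compressed steps.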
